A study of Mus musculus with 6 samples.

Results

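Interferon-stimulated genes and the genes that regulate them were examined in mouse CD4-CD8- double negative T (DNT) cells cultured with or without IL-33. The set held 43 genes, taken by name: receptor chains, transcription factors, sensors of nucleic acid, antiviral effectors and interferon-inducible GTPases. All 43 were among the 26128 genes listed for the series. Of these, 14671 had enough reads to be tested, including 42 of the 43, the exception being Ifit3.

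Interferons signal through pairs of receptor chains. Type I interferons bind IFNAR1 and IFNAR2 and act mainly through a complex that contains STAT2 and IRF9 and binds the interferon-stimulated response element. Interferon-γ, which T cells secrete themselves, binds IFNGR1 and IFNGR2 and acts mainly at the gamma-activated site. The induced genes include antiviral effectors, guanylate-binding proteins (GBPs) and immunity-related GTPases (IRGs), and the kinase inhibitor SOCS1 limits the response.

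The cells came from adult male C57BL/6 mice. CD4+CD25- T cells from spleen and lymph nodes were converted in culture with mature dendritic cells of DBA/2 mice and IL-2, and CD3+NK1.1-CD4-CD8- cells were then sorted. The sorted cells were then restimulated over 48 h by beads carrying anti-CD3 and anti-CD28, without IL-33 in the control group (n = 3 libraries) and with IL-33 at 50 ng/ml in the IL-33 group (n = 3 libraries). Both groups therefore carried the same bead stimulation, and the labels name no added interferon or blocker of interferon. Whether the 3 replicates of a group were separate animals or cultures is not stated, so p-values measure only the spread between these libraries, which may be technical.

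The libraries held 20256342 to 22336050 counts. A total of 3 counts in a library, taken as the floor of detection, corresponded to 0.135 to 0.148 CPM. CPM are counts in every 1000000 of the library's counts in tested genes, scaled between libraries. Cd4 had 5 to 22 counts in every library, whereas Cd8a stood at 535 to 561 CPM in control and 393 to 410 CPM with IL-33, although the cells had been sorted as CD8-. Markers of macrophages and dendritic cells were mixed. Csf1r, Lyz2, Adgre1, Flt3 and Siglech had 13 counts or fewer in every library, whereas Itgax had 548 to 1185 counts, H2-Ab1 483 to 677, Xcr1 223 to 282, Cd74 73 to 130 and Itgam 53 to 120. In bulk libraries, fewer cells of a type and less RNA per cell cannot be told apart, and this holds for every gene below.

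With IL-33, 13 of the 42 tested genes fell and 5 rose at an adjusted p under 0.05, and 24 did not pass the test (edgeR's quasi-likelihood test, Benjamini-Hochberg adjustment over all genes tested). This was 42.9% of the tested genes of the set, beside 27.5% of all genes tested. By direction, 31.0% of the set fell beside 13.9% of all genes tested, and 11.9% rose beside 13.6%. The genes that fell were Ifngr2, Ifnar2, Stat2, Irf1, Irf9, Zbp1, Ifit2, Oas3, Parp14, Gbp2, Igtp, Irgm1 and Ifi30. Those that rose were Ifngr1, Isg20, Oasl1, Bst2 and Trim25. Among the 13 T cell identity genes of another list, 4 (30.8%) also fell (Lck, Lat, Cd5 and Cd2) and Cd3g rose, with a median log2 fold change of -0.013.

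Most of these changes were small. The median log2 fold change of the 42 genes was -0.082, beside -0.00063 over all genes tested, and 28 of the 42 values lay below zero. Only 3 of the 42 (7.14%) also passed the fold change threshold of 1.5, beside 4.87% of all genes tested: Oasl1 was higher (beside 2.47% of all genes), and Ifngr2 and Ifi30 were lower (beside 2.39%). When control replicate 2 or IL-33 replicate 2 was left out, this count fell from 3 to 1. The 3 control and 3 IL-33 values did not overlap for 23 of the 42 genes (54.8%), 16 of them lower and 7 higher, beside 38.9% of all genes tested. By direction, 19.5% of all genes tested were lower and 19.4% higher with no overlap.

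**Figure D1:**
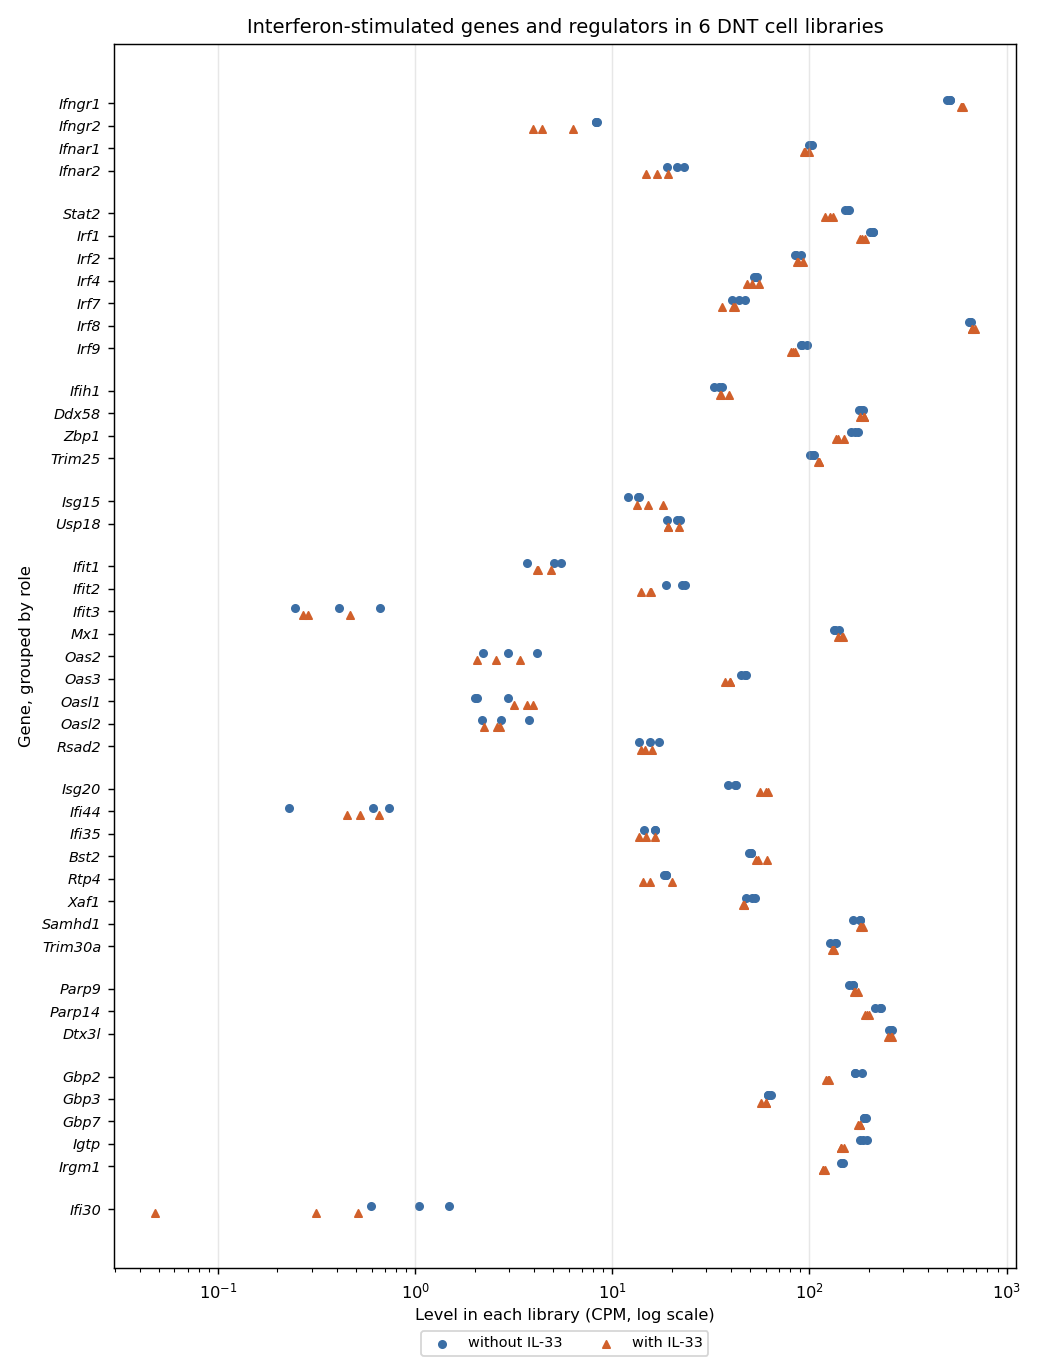
Level of each of the 43 genes in each of the 6 libraries, in CPM on a log axis, with circles for the libraries without IL-33 and triangles for those with IL-33. Most genes lay well above the detection floor, 18 of them over 100 CPM in control, while Ifit3, Ifi44 and Ifi30 lay near or below 1 CPM.

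The levels differed far more between genes than between groups. Per kilobase of exon, the control mean ran from 0.0859 CPM for Ifi44 to 180 CPM for Ifngr1. Igtp (93.0 CPM per kb), Irf8 (92.6 CPM per kb) and Gbp2 (69.7 CPM per kb) followed Ifngr1, and the levels of Igtp and Irf8 did not differ beyond their SDs of 3.41 and 1.20. Replicates lay close together, with a median coefficient of variation of 3.84% in control and 3.82% with IL-33.

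**Figure D2:**
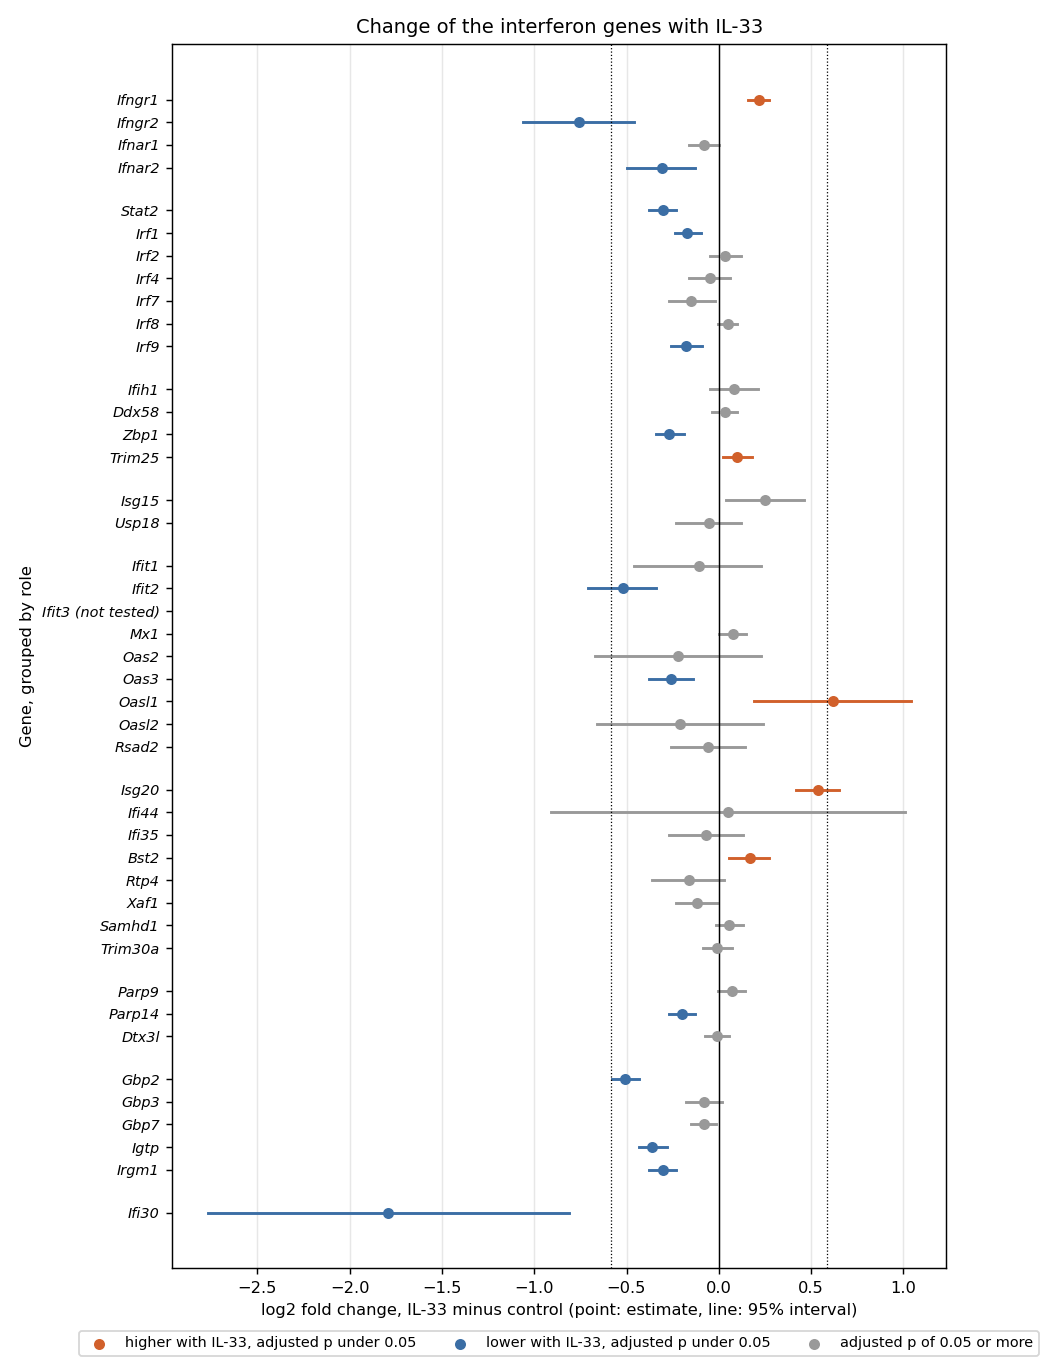
Log2 fold change (IL-33 minus control) of the 42 tested genes, grouped by role, with lines for the 95% interval and dotted lines at the fold change threshold. The 13 genes that fell are blue, the 5 that rose are orange, and the other 24 are grey; Ifi44, Ifi30, Oas2, Oasl2 and Oasl1, which have few counts, carry wide intervals.

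The promoters of the set were searched on both strands for the cores of the 2 response elements. Promoters of 300 bases, 250 before and 50 after the start site, were given by RefSeq (GRCm38.p6) for 36 of the 43 genes. Of the 44 promoters of these genes, 17 (38.6%) held the core of the interferon-stimulated response element, 2 copies of GAAA separated by any 2 bases, against 1131 of all 32851 promoters (3.44%). The core of the gamma-activated site, TTCNNNGAA, was found in 12 of the 44 (27.3%) and in 2726 of all promoters (8.30%). The promoters of Bst2, Gbp7, Igtp and Irf2, 4 genes in all, held both.

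Promoter stretches are printed for the members that rose or fell and held a core in the 150 bases before the start, and for Isg15 and Ifit1, which did not pass the test. Stat2, Ifit2 and Ifnar2, which fell, held a core farther upstream that is not printed. Capitals mark the cores. Each reads 5′ to 3′ on the strand of its gene, so a response element on the opposite strand appears as its reverse complement, as in Gbp2 and Ifit1. Where cores overlap, as in Irgm1, Bst2 and Isg15, they form a run of capitals. Distances are from the RefSeq start. For Gbp2 and Irgm1 the GENCODE annotation, from which the gene positions below are taken, starts the gene farther upstream. The printed stretch of these genes therefore overlaps a GENCODE exon, and only 30 bases are printed.
Gbp2, chr3:142620594-142620623, plus strand, 69 to 40 bases before the start: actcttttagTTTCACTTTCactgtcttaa
Igtp, chr11:58199491-58199551, plus strand, 65 to 5 bases before the start: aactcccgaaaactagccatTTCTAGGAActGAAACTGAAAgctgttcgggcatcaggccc
Irgm1, chr11:48871428-48871457, minus strand, 37 to 8 bases before the start: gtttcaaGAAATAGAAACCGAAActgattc
Oas3, chr5:120777705-120777754, minus strand, 95 to 46 bases before the start: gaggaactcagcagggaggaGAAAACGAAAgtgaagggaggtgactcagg
Irf1, chr11:53769904-53769952, plus strand, 110 to 62 bases before the start: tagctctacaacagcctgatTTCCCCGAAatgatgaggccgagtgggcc
Isg20, chr7:78913331-78913379, plus strand, 93 to 45 bases before the start: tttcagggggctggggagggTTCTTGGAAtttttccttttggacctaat
Bst2, chr8:71537567-71537628, minus strand, 156 to 95 bases before the start: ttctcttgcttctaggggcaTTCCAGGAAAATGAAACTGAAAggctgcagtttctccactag
Isg15, chr4:156200855-156200916, minus strand, 98 to 37 bases before the start: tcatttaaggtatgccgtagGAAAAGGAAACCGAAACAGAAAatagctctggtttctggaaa
Ifit1, chr19:34640765-34640833, plus strand, 124 to 56 bases before the start: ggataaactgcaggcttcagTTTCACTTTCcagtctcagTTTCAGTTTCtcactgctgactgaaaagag

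The cores were found in promoters of genes that rose, fell and did not pass. The response element core lay in a promoter of 5 of the 11 genes that fell, 1 of the 5 that rose and 9 of the 19 that did not pass, counting genes with a promoter. The gamma-activated core lay in a promoter of 4 of the 11, 2 of the 5 and 6 of the 19. These matches describe the letters in the window and are no evidence of binding.

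**Figure D3:**
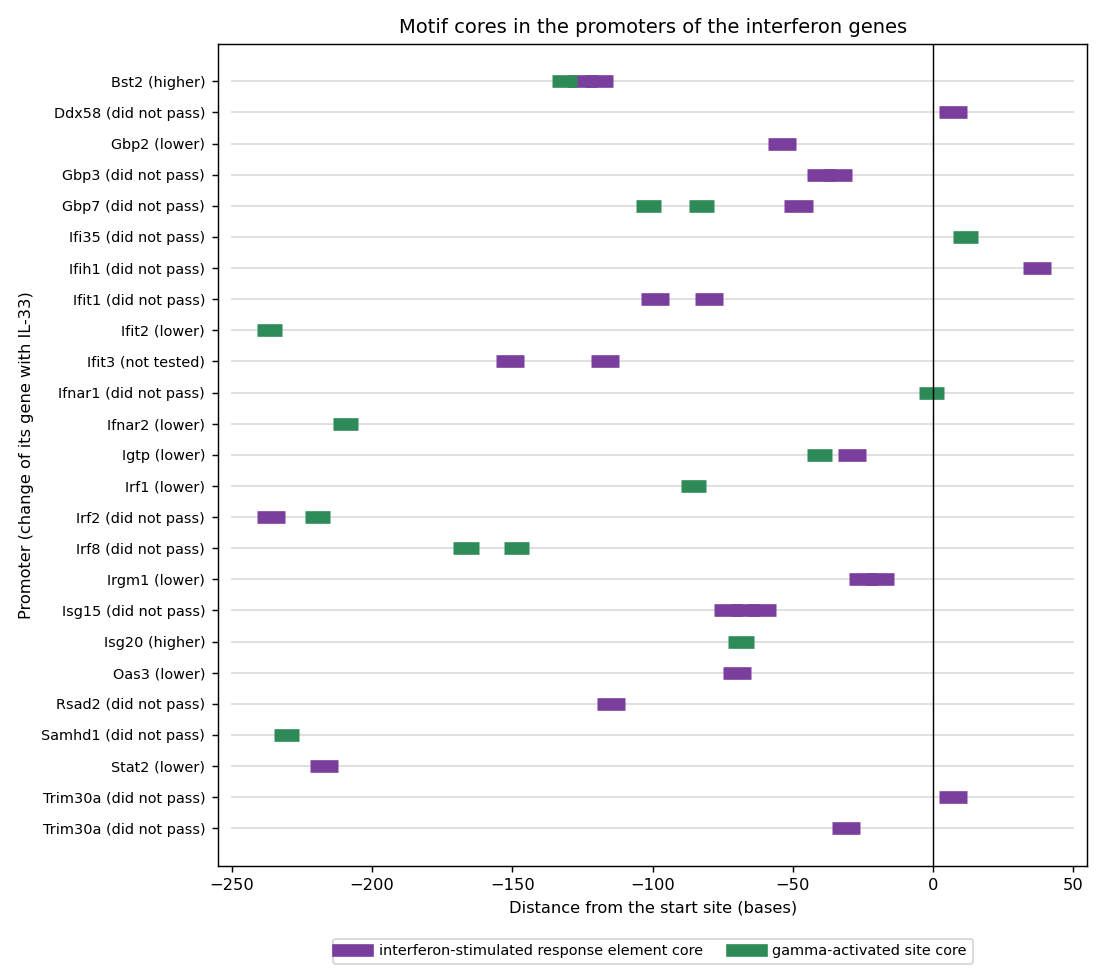
Position of each response element core (purple) and gamma-activated core (green) in the promoters of the set that hold one, in bases from the start site, with the result of each gene's test in its label. Most of the response element cores lay between 150 bases before the start and the start itself, in genes that fell as well as in genes that did not pass.

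The 2 chains of the interferon-γ receptor moved in opposite directions. Ifngr1, the ligand-binding chain of the interferon-γ receptor (10:19591949-19610229, plus strand, GRCm38), stood at 519, 518 and 497 CPM in control and at 595, 601 and 587 CPM with IL-33. All IL-33 libraries were above all control libraries, and the level rose from 511 ± 12.1 to 594 ± 7.08 CPM (SD, n = 3; log2 fold change 0.22, SE 0.027, adjusted p = 6.2e-11). Ifngr2, the signalling chain (16:91547072-91565623, plus strand), was at 8.34, 8.27 and 8.30 CPM in control and at 4.42, 3.96 and 6.30 CPM with IL-33. Again the groups did not overlap, and the level fell from 8.30 ± 0.0361 to 4.89 ± 1.24 CPM (log2 fold change -0.76, SE 0.15, adjusted p = 2.4e-05).

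The 2 chains were far apart in level before IL-33 was added. Per kilobase of exon, Ifngr1 exceeded Ifngr2 by a ratio of 82.3, 82.9 and 79.3 in the control libraries and of 178, 201 and 123 in the IL-33 libraries. The ratio was thus higher in every IL-33 library, with the widest spread in that group. An exact permutation test of 3 libraries against 3 cannot give a p below 0.1.

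Of the chains of the type I interferon receptor, Ifnar2 fell and Ifnar1 did not pass. Ifnar2 (16:91372783-91405589, plus strand) had 23.1, 21.2 and 19.0 CPM in control and 19.1, 14.8 and 16.9 CPM with IL-33, so that the lowest control library lay inside the IL-33 range. It fell from 21.1 ± 2.05 to 16.9 ± 2.12 CPM (log2 fold change -0.31, SE 0.092, adjusted p = 0.00566). It was the only gene of the 18 whose groups overlapped, and the call was lost without control replicate 1 (log2 fold change -0.24, adjusted p = 0.0733) and without IL-33 replicate 2 (-0.23, adjusted p = 0.0907). Ifnar2 shares 9.46% of its exon bases with Gm21970 on the same strand, whose reads cannot be told apart there. Ifnar1 went from 102 ± 1.68 to 96.0 ± 3.33 CPM and did not pass (log2 fold change -0.082, adjusted p = 0.134).

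Of the 7 transcription factors, 3 fell, none rose and 4 did not pass. Thus 42.9% fell beside 13.9% of all genes tested. Stat2 and Irf9 encode parts of the complex that reads the response element, and both fell. Stat2 (10:128270559-128292849, plus strand) went from 151, 158 and 157 CPM to 127, 120 and 131 CPM, with no overlap (155 ± 3.76 against 126 ± 5.18, log2 fold change -0.30, SE 0.038, adjusted p = 1.2e-10). Irf9 (14:55603571-55610030, plus strand) went from 90.8, 92.1 and 97.5 CPM to 80.5, 84.9 and 82.9 CPM, also with no overlap (log2 fold change -0.18, SE 0.042, adjusted p = 0.00059). Irf9 shares 2.28% of its exon bases with Rnf31 on the same strand, which did not pass the test (log2 fold change -0.03, adjusted p = 0.681).

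Irf1, which is induced by interferon-γ and activates many of its genes in turn, carried the gamma-activated core printed above. Its level (11:53770014-53778374, plus strand) was 211, 210 and 204 CPM in control and 192, 181 and 184 CPM with IL-33. Every IL-33 library lay below every control library (208 ± 3.67 against 186 ± 5.50 CPM, log2 fold change -0.17, SE 0.035, adjusted p = 5.0e-05).

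The other factors stayed within small differences. Irf8, the most abundant factor of the set per kilobase, had 661, 644 and 656 CPM in control and 693, 668 and 666 CPM with IL-33. Its groups did not overlap, but the difference did not pass (log2 fold change 0.048, adjusted p = 0.17). Irf2, an antagonist of IRF1 (0.035, adjusted p = 0.601), and Irf4, a factor of activated lymphocytes (-0.049, adjusted p = 0.562), overlapped between groups. Irf7, the main amplifier of type I interferon production, stood at 43.8 ± 3.19 CPM in control and 39.6 ± 3.28 CPM with IL-33 (log2 fold change -0.15, adjusted p = 0.0761). It passed only when control replicate 1 (-0.20, adjusted p = 0.0193) or IL-33 replicate 2 (-0.19, adjusted p = 0.0445) was left out.

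Among the 4 sensors and their ligase, 1 gene fell, 1 rose and 2 did not pass. That was 25.0% each way, while 13.9% of all genes tested fell and 13.6% rose. Zbp1, a sensor of Z-form nucleic acid that can start necroptosis (2:173206612-173218923, minus strand), was at 163, 177 and 171 CPM in control and at 149, 136 and 140 CPM with IL-33. The groups did not overlap, and it fell from 171 ± 6.77 to 142 ± 6.37 CPM (log2 fold change -0.27, SE 0.038, adjusted p = 5.4e-09). The RNA sensors Ddx58 (RIG-I, log2 fold change 0.034, adjusted p = 0.519) and Ifih1 (MDA5, 0.083, adjusted p = 0.382) did not pass.

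Trim25, the ubiquitin ligase that activates RIG-I, rose slightly. It stood at 101, 104 and 106 CPM in control and at 112, 112 and 110 CPM with IL-33, with no overlap (log2 fold change 0.10, SE 0.040, adjusted p = 0.0464). The call was at the threshold: it was lost in 5 of the 6 fits that left out a library, among them without control replicate 1 (log2 fold change 0.081, adjusted p = 0.171), and held only without IL-33 replicate 3. The other 4 were those without control replicate 2 (adjusted p = 0.0793) or 3 (adjusted p = 0.0510), and without IL-33 replicate 1 (adjusted p = 0.0912) or 2 (adjusted p = 0.0983).

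Isg15, the ubiquitin-like modifier, and Usp18, the protease that removes it and restrains IFNAR2, did not pass. Isg15 had 12, 13.5 and 13.6 CPM in control and 18, 15.2 and 13.3 CPM with IL-33. The IL-33 libraries were spread and the lowest of them lay inside the control range (log2 fold change 0.25, SE 0.11, adjusted p = 0.0712). Without that library, IL-33 replicate 3, the difference passed (0.35, adjusted p = 0.0135). Usp18 lay between 18.9 and 22 CPM in control and between 19.1 and 21.7 CPM with IL-33 (log2 fold change -0.053, adjusted p = 0.707).

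The IFIT, OAS and MX effectors comprised 9 genes, of which 8 were tested: 2 fell, 1 rose and 5 did not pass. Thus 25.0% fell beside 13.9% of all genes tested, and 12.5% rose, near the 13.6% of all genes. Ifit2, an RNA-binding protein (19:34550694-34576419, plus strand), had 18.8, 22.6 and 23.5 CPM in control and 13.9, 15.7 and 15.5 CPM with IL-33. It was lower in all IL-33 libraries and fell from 21.6 ± 2.49 to 15.0 ± 0.951 CPM (log2 fold change -0.52, SE 0.093, adjusted p = 2.5e-06). Ifit1, which binds RNA with a foreign cap and carries a pair of response element cores in its promoter, was at 4.75 ± 0.958 and 4.40 ± 0.406 CPM (log2 fold change -0.11, adjusted p = 0.689). Ifit3 had 14, 5 and 9 counts in control and 10, 6 and 6 with IL-33, too few to be tested. Reads of such closely related genes could have been split or lost between family members in counting.

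The oligoadenylate synthetases, which make the activator of RNase L, did not move together. Oas3 (5:120753098-120777661, minus strand) stood at 44.9, 47.8 and 47.0 CPM in control and 39.5, 37.5 and 39.6 CPM with IL-33. The groups did not overlap, and it fell from 46.6 ± 1.51 to 38.9 ± 1.19 CPM (log2 fold change -0.26, SE 0.060, adjusted p = 0.00030). Its chromosome neighbour Oas2 was low and variable, at 2.05 to 4.15 CPM over all libraries (log2 fold change -0.22, SE 0.22, adjusted p = 0.519).

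Oasl1, an OAS-like protein that represses translation of Irf7 mRNA, was the member with the highest fold change (5:114923240-114937915, plus strand). It had 2.97, 2.02 and 2.05 CPM in control and 3.16, 3.67 and 3.96 CPM with IL-33. The groups did not overlap, with control replicate 1 close to the IL-33 range, and the level rose from 2.35 ± 0.539 to 3.60 ± 0.404 CPM (log2 fold change 0.62, SE 0.22, adjusted p = 0.0228). The call was lost on leaving out replicate 2 (0.52, adjusted p = 0.103) or 3 (0.53, adjusted p = 0.0966) of the control group, and replicate 2 (0.60, adjusted p = 0.0590) or 3 (0.54, adjusted p = 0.0982) of the IL-33 group. DESeq2 did not call it either (adjusted p = 0.0577).

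Its neighbour Oasl2 went the other way without passing (log2 fold change -0.21, SE 0.23, adjusted p = 0.552). Mx1, a GTPase gene, stood at 137 ± 3.38 and 144 ± 4.90 CPM and did not pass (log2 fold change 0.076, adjusted p = 0.135). These are RNA levels and do not show whether a working protein was made. Rsad2 (viperin), which makes a chain-terminating nucleotide, was at 15.5 ± 1.84 and 14.8 ± 0.895 CPM (log2 fold change -0.059, adjusted p = 0.723).

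The 8 other antiviral and regulatory products included 2 that rose and none that fell. The share called, 25.0%, was near the 27.5% of all genes tested. Isg20, an RNA exonuclease (7:78913424-78920396, plus strand), stood at 38.4, 42.3 and 41.7 CPM in control and 59.9, 61.8 and 55.9 CPM with IL-33. Every IL-33 library was well above every control library (40.8 ± 2.15 against 59.2 ± 3.00 CPM, log2 fold change 0.54, SE 0.057, adjusted p = 7.8e-14). This was the lowest adjusted p among the genes of the set that rose, and its promoters held a gamma-activated core but no response element core.

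Bst2 (tetherin), which holds budding virions at the cell surface, carried both cores. It had 49.3, 50.5 and 50.7 CPM in control and 60.9, 54.8 and 53.3 CPM with IL-33, with no overlap (8:71534255-71537456, minus strand; log2 fold change 0.17, SE 0.055, adjusted p = 0.0149). The size of the difference rested on IL-33 replicate 1, without which it did not pass (0.11, adjusted p = 0.212).

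The remaining 6 products did not pass. Xaf1, an antagonist of the apoptosis inhibitor XIAP, had no overlap between groups (50.6 ± 2.52 against 46.5 ± 0.292 CPM, log2 fold change -0.12, adjusted p = 0.104) and passed only without control replicate 1 (-0.16, adjusted p = 0.0460). Rtp4 (18.6 ± 0.276 against 16.6 ± 3.03 CPM, log2 fold change -0.16, adjusted p = 0.217) passed only without IL-33 replicate 1 (-0.32, adjusted p = 0.0223). Samhd1, which degrades deoxynucleotides, stood at 176 ± 7.77 and 183 ± 3.02 CPM (0.057, adjusted p = 0.247), and Trim30a at 133 ± 5.03 and 132 ± 2.42 CPM (-0.0078, adjusted p = 0.911). Ifi35 differed by -0.071 (adjusted p = 0.654) and Ifi44, with under 1 CPM, by 0.052 with an SE of 0.49 (adjusted p = 0.956).

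Parp14, Parp9 and Dtx3l lie side by side on chromosome 16, and 1 of the 3 fell (33.3%, beside 13.9% of all genes tested). Parp14, a mono-ADP-ribosyltransferase (16:35832874-35871544, minus strand), had 215, 232 and 227 CPM in control and 200, 196 and 191 CPM with IL-33. The groups did not overlap (225 ± 8.78 against 196 ± 4.53 CPM, log2 fold change -0.20, SE 0.034, adjusted p = 1.2e-06). Parp9 and its partner ligase Dtx3l did not pass (log2 fold change 0.069, adjusted p = 0.15, and -0.010, adjusted p = 0.852). They share 458 exon bases on opposite strands, which cannot be assigned to either gene if the counting ignored the strand.

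The 5 interferon-inducible GTPases had lower levels in every IL-33 library than in any control library, and 3 of them fell while Gbp3 and Gbp7 did not pass. Their summed level was 746 to 781 CPM in control and 621 to 631 CPM with IL-33, and their median log2 fold change was -0.30. Gbp2, which coats vacuoles of intracellular pathogens (3:142620602-142638008, plus strand), stood at 171, 185 and 171 CPM in control and 126, 121 and 124 CPM with IL-33. It fell from 175 ± 8.13 to 123 ± 2.73 CPM (log2 fold change -0.51, SE 0.038, adjusted p = 1.4e-21), the lowest adjusted p of the set.

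The IRG members fell as well. Igtp (IRGM3; 11:58199556-58207591, plus strand) had 181, 195 and 188 CPM in control and 145, 145 and 150 CPM with IL-33 (log2 fold change -0.36, SE 0.036, adjusted p = 1.8e-14). Irgm1, a regulator of the effector IRGs and of autophagy (11:48861968-48871683, minus strand), had 144, 146 and 148 CPM in control and 117, 117 and 120 CPM with IL-33 (log2 fold change -0.30, SE 0.038, adjusted p = 7.8e-11). In both, the control and IL-33 libraries were separated by more than the range within either group. Igtp shares 162 exon bases (8.01%) with Irgm2 on the same strand, so reads there could belong to either gene.

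Gbp7 and Gbp3 were lower by smaller amounts. Gbp7 had 189, 193 and 189 CPM in control and 181, 181 and 177 CPM with IL-33 (log2 fold change -0.082, adjusted p = 0.0679). Gbp3 had 61.5, 61.9 and 64.0 CPM in control and 59.9, 57 and 60.1 CPM with IL-33 (log2 fold change -0.082, adjusted p = 0.233). Their promoters held the response element core as that of Gbp2 did.

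Ifi30, the lysosomal thiol reductase that unfolds antigens for presentation, had the lowest fold change of the set but few counts. GENCODE types the counted entry as a processed transcript, not as protein coding. Ifi30 had 22, 30 and 13 counts in control and 11, 1 and 7 with IL-33 (1.04 ± 0.442 against 0.291 ± 0.233 CPM; log2 fold change -1.79, SE 0.49, adjusted p = 0.00295). The groups did not overlap, and IL-33 replicate 2, with its 1 count, lay below the floor of 3 counts. The call was lost without that library (-1.31, adjusted p = 0.0533) and without control replicate 2 (-1.45, adjusted p = 0.0648), and DESeq2 gave no adjusted p for Ifi30. Its neighbour Mpv17l2, 1828 bases away on the same strand, was also lower (11.4 against 3.16 CPM, log2 fold change -1.84, SE 0.44, adjusted p = 0.0445), while Pik3r2 on the other side did not pass (-0.061, adjusted p = 0.79).

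Genes of the pathway outside the set were read from lists chosen with earlier results of these data known, so their counts are a description. Of 21 interferon ligands, 6 were listed and only Ifng was tested. It stood at 38.4, 43.6 and 46.3 CPM in control and 85.3, 83.9 and 80.4 CPM with IL-33. Every IL-33 library was far above every control library, and the level rose from 42.7 ± 4.03 to 83.2 ± 2.50 CPM (log2 fold change 0.96, SE 0.052, adjusted p = 4.1e-29). Ifng shares 25.9% of its exon bases with Gm49751 on the same strand, to which a mean of 77.2 counts was assigned. Ifna13, Ifnab, Ifnz, Ifne and Ifnk had at most 0.236 CPM in any library.

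**Figure D4:**
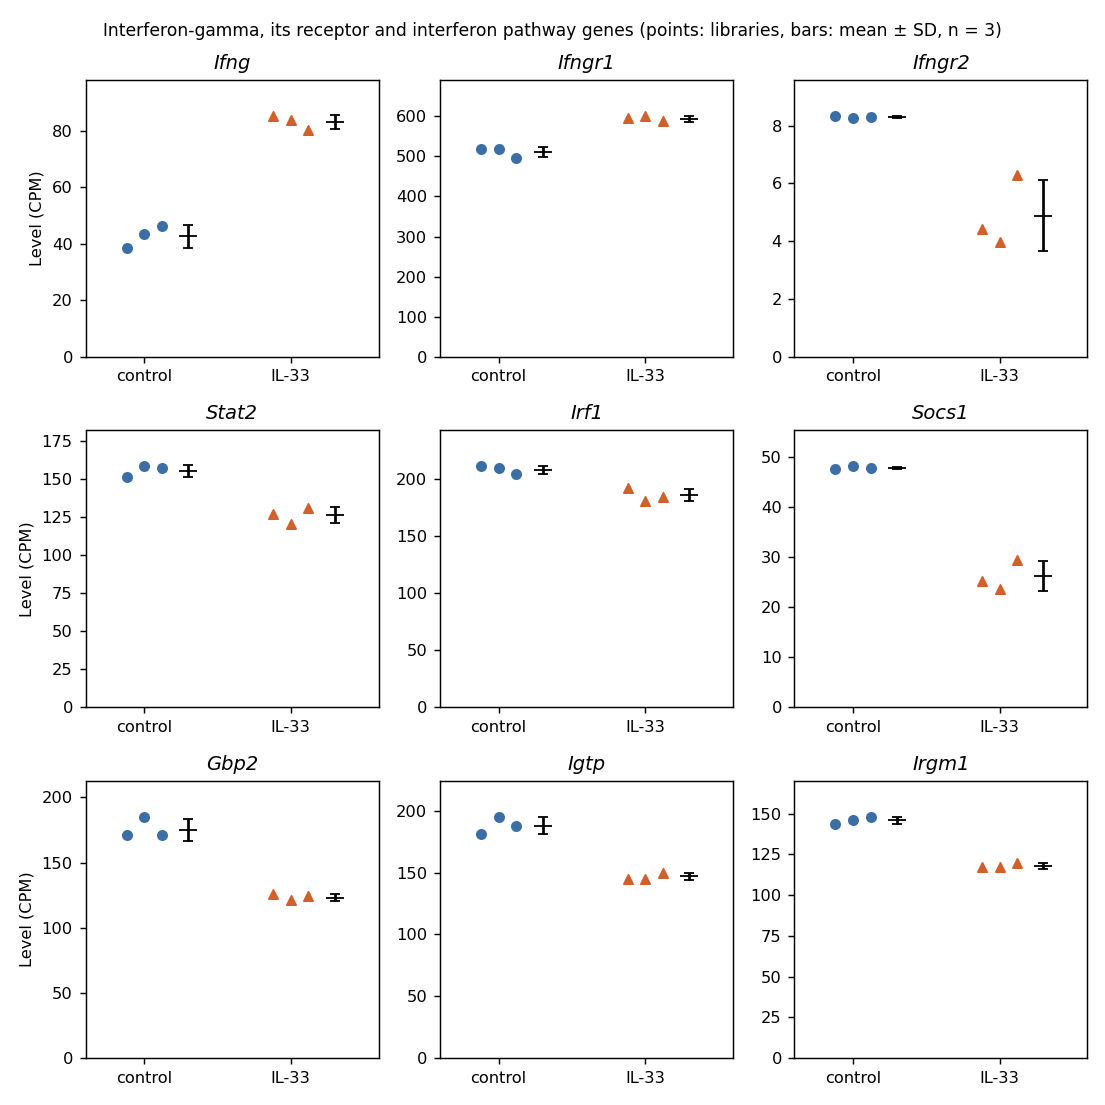
Levels in CPM of Ifng, its 2 receptor chains, and 6 genes of the interferon pathways, with a point for each library (circles control, triangles IL-33) and bars for the mean and SD (n = 3), each panel from 0 on its own scale. Ifng and Ifngr1 were higher with IL-33, while Ifngr2, Stat2, Irf1, Socs1, Gbp2, Igtp and Irgm1 were lower, with no overlap between groups in any panel. The genes shown were picked from the set and the lists, where others overlapped, such as Ifnar2, Jak2 and Socs3. Of all genes tested, 38.9% had no overlap.

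Of the 9 kinases and feedback inhibitors described, 1 rose, 2 fell and 6 did not pass, with a median log2 fold change of -0.049. The share called, 33.3%, was near the 27.5% of all genes tested. Socs1, a feedback inhibitor of the receptor kinases, had 47.5, 48.1 and 47.7 CPM in control and 25.2, 23.7 and 29.5 CPM with IL-33. It fell from 47.8 ± 0.273 to 26.2 ± 3.01 CPM (log2 fold change -0.87, SE 0.067, adjusted p = 1.0e-20) and was the only gene of this list past both thresholds.

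Of the receptor-bound kinases, 1 was called. Jak1, used by both receptors, rose slightly (971 ± 25.7 against 1090 ± 16.5 CPM, log2 fold change 0.16, adjusted p = 2.0e-08). Jak2, bound to IFNGR2 (0.022, adjusted p = 0.663), did not pass. Tyk2, bound to IFNAR1 (0.082, adjusted p = 0.0825), passed only without control replicate 1 (0.11, adjusted p = 0.0360). The phosphatase Ptpn6 fell (-0.36, adjusted p = 3.0e-11), and Socs3 did not pass (0.022, adjusted p = 0.86).

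Of 13 tested adaptors and kinases upstream of interferon production, 4 rose, 5 fell and 4 did not pass, with a median of -0.11. Thus 30.8% rose beside 13.6% of all genes tested, and 38.5% fell beside 13.9%. Mb21d1 (cGAS), the sensor of cytosolic DNA, fell past both thresholds from 19.0 ± 0.128 to 11.3 ± 1.55 CPM (log2 fold change -0.74, SE 0.10, adjusted p = 2.6e-09). Irf5 rose (0.40, adjusted p = 4.0e-05). Irf3, the factor that starts Ifnb1 transcription, fell slightly (47.5 ± 1.04 against 42.4 ± 2.49 CPM, log2 fold change -0.16, adjusted p = 0.0309), a call lost with DESeq2 (adjusted p = 0.0640) and without control replicate 1 (adjusted p = 0.0756) or 3 (adjusted p = 0.0858), or IL-33 replicate 1 (adjusted p = 0.203) or 2 (adjusted p = 0.0807). The number that fell in this list was 3 with DESeq2, without IL-33 replicate 1 and without IL-33 replicate 2.

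Of 71 tested further genes known mainly as type I interferon targets, 28 fell, 10 rose and 33 did not pass, so that 39.4% fell beside 13.9% of all genes tested, and 14.1% rose, near the 13.6% of all genes. The median log2 fold change was -0.088. In this list 2 genes (2.82%) passed both thresholds, beside 4.87% of all genes tested. Ifi214, a member of the IFI200 family, rose (18.5 ± 0.457 against 28.6 ± 1.42 CPM, log2 fold change 0.63, adjusted p = 1.2e-10), and Ube2l6, the conjugating enzyme for ISG15, fell (11.3 ± 0.546 against 6.91 ± 0.665 CPM, log2 fold change -0.71, adjusted p = 3.3e-06).

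Of 33 tested further genes known mainly as interferon-γ targets, 21 fell, 2 rose and 10 did not pass. Thus 63.6% fell beside 13.9% of all genes tested and 6.06% rose beside 13.6%, and 30 of 33 values lay below zero, with a median log2 fold change of -0.24. Their summed level was 7670 to 7850 CPM in control and 6520 to 6690 CPM with IL-33. The number that fell was 20 to 23 in the fits that left out a library.

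In this list 6 genes (18.2%) passed both thresholds, 5 lower and 1 higher, beside 4.87% of all genes tested (2.39% lower and 2.47% higher). They were mostly GTPases, of which the list itself holds many. Irgm2 fell from 92.2 ± 2.20 to 57.3 ± 2.13 CPM (log2 fold change -0.69, adjusted p = 2.8e-25) and Iigp1, an effector IRG, from 186 ± 8.64 to 115 ± 8.62 CPM (-0.69, adjusted p = 6.5e-20). Another IRG, F830016B08Rik, fell by 0.72 on the log2 scale (adjusted p = 4.4e-10) and Gbp10 by 0.69 (adjusted p = 7.3e-12). Gbp10 shares 46.3% of its exon bases with Gm43302 on the same strand, which was not among the listed genes. The protease inhibitor Serpina3g fell from 341 ± 8.26 to 212 ± 15.7 CPM (-0.68, adjusted p = 1.1e-17). Against this direction, Ido1, which degrades tryptophan, rose from 4.55 ± 0.739 to 7.08 ± 1.02 CPM (0.64, adjusted p = 0.00081). Lap3 was the other gene that rose, and the count of rises was 1 without control replicate 1 or control replicate 2.

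**Figure D5:**
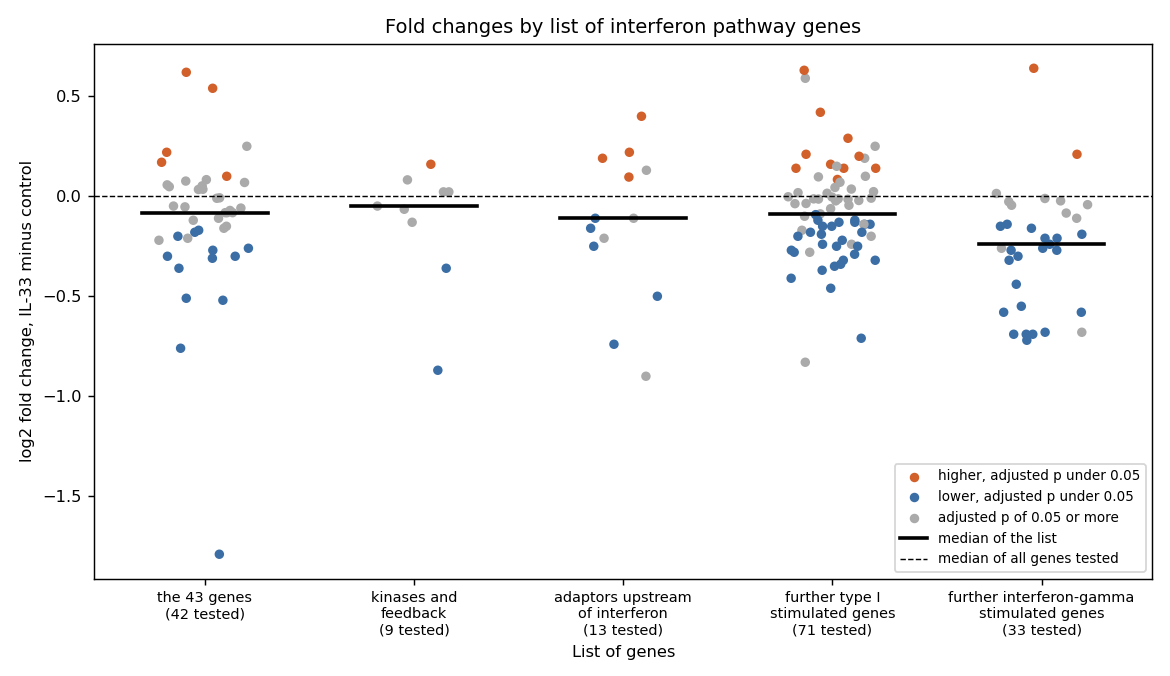
Log2 fold changes (IL-33 minus control) of the set and of 4 lists of other pathway genes, with a point for each tested gene, a bar at the median of the list and a dashed line at the median of all genes tested. The list of interferon-γ targets had the lowest median, -0.24, and the list of kinases and feedback inhibitors the highest, -0.049.

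Some lists of other cells moved with these groups. The summed level of the dendritic cell list was 102 to 105 CPM in control and 80.6 to 87.8 CPM with IL-33, where 5 of 8 tested genes passed, 3 higher and 2 lower. Fscn1 (log2 fold change 1.41), Batf3 (1.28) and H2-Ab1 (0.29) rose, while Itgax (-1.07), which T cells can also express, and Cd74 (-0.58) fell. The lower sum of this list rested on Itgax, whose mean level fell by more CPM than the sum did. Xcr1 stood at 11.5 ± 1.02 and 12.4 ± 0.969 CPM without passing. The macrophage and monocyte list, nearly all of it Ly6c2, summed to 448 to 480 CPM and 402 to 428 CPM, with 1 of 3 tested genes higher and 1 lower. The mast cell and basophil list summed to 38.1 to 41.0 CPM and 26.6 to 31.5 CPM, with 2 of 3 tested genes lower. The B cell list summed to 15.3 to 16.6 CPM and 16.4 to 21.6 CPM, with none of 3 called. The NK and innate lymphoid cell list summed to 624 to 636 CPM and 646 to 655 CPM, with 1 of 4 higher and 2 lower. The higher sum rested on Kit (107 ± 5.32 against 176 ± 13.0 CPM), while Klrb1c and Rora fell and Eomes did not pass. Of the 4 genes sorted against, Cd8b1 rose and Cd4, Cd8a and Klrb1c fell. The part of these cells in the differences of the interferon genes was not tested.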

How the data were processed

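RNA was sequenced from 6 libraries of DNT cells, 3 control and 3 with IL-33, grouped by their labels. The authors deposited a table of raw, unnormalised read counts by gene and library, and a column of mean normalised counts that was not used. The submitters' processing notes name Bowtie 0.12.2 and build mm8, with no role. Neither the counting program nor its annotation or strand setting is given in the sources used here. The labels name the TruSeq kit and the study's methods the NEBNext Ultra kit.

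Of 26128 identifiers, 26086 matched GENCODE M21 (GRCm38), the source of positions and exon lengths, and promoters came from RefSeq. With edgeR 4.0.16 (R 4.3.3), genes were filtered by filterByExpr (minimum count 10, minimum total 15), scaled by TMM and compared with the quasi-likelihood test (robust, two-sided, no covariates, Benjamini-Hochberg over 14671 genes). Thresholds were 0.05 for the adjusted p and 0.585 for the log2 fold change, a fold of 1.5. CPM are counts in every 1000000 of the library's counts in tested genes, after TMM scaling. Every pair of replicates differed by more than sampling noise. Totals of 20256342 to 22336050 counts limit the precision, and floors cover counting error only.

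The named genes are all 43 members, and from the pathway lists the ligands detected, Jak1, Jak2, Tyk2, Socs1, Socs3, Irf3 and genes past both thresholds. Ptpn6, Irf5, Lap3, Gbp5 and Ifi209 were named after their values were seen. Some genes of the lists are not reported here. The members and lists were chosen with earlier results of these data known. Alternatives were DESeq2 1.42.0, limma-voom (limma 3.58.1), DESeq2 size factors, other filters, the replicate number as a block, a test against the fold threshold and each library left out. The fit was tested on simulated data.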

Additional observations from a re-analysis of the deposited data

How the results depend on the processing

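Of the 18 genes of the set called with IL-33, 13 were called under all 12 alternatives to the test, normalisation, filter and libraries (Ifngr1, Ifngr2, Stat2, Irf1, Irf9, Zbp1, Ifit2, Oas3, Isg20, Parp14, Gbp2, Igtp and Irgm1), while Ifnar2, Trim25, Oasl1, Bst2 and Ifi30 lost the call in at least 1. The test against the fold threshold, which no member passed, is not among these 12. Ifi30 gave no value under the filter of at least 1 CPM, and with DESeq2 it had no adjusted p and was not called. Trim25 was lost with DESeq2, limma-voom and no filter (adjusted p = 0.0794, 0.0560 and 0.0818).

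With DESeq2, 3 members rose, 1 was past both thresholds (0 higher, 1 lower), and 3 upstream adaptors fell. With at least 1 CPM required, 1 member fell past both thresholds. Tested against the fold threshold itself, 113 of all genes passed (75 higher, 38 lower) and 0 members (0 higher, 0 lower). The cause of these differences was not tested.

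Leaving out 1 library gave 15 to 18 members called (3 to 5 higher, 12 to 14 lower), 1 to 4 past both thresholds (0 to 1 higher, 1 to 3 lower) and a median of -0.11 to -0.055. The adaptors that fell numbered 3 to 4, the kinase list had 1 to 2 rises, and the interferon-γ list 1 to 2. Signs changed in 8 genes, none of them called in these fits: Ifit1 (-0.27 to 0.0056), Oas2 (-0.43 to 0.051), Oasl2 (-0.37 to 0.038), Rsad2 (-0.14 to 0.028), Ifi44 (-0.31 to 0.37), Trim30a (-0.039 to 0.012), Dtx3l (-0.022 to 0.010) and Socs3 (-0.085 to 0.11).

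The deviations of same-numbered libraries from their group means correlated at 0.0461, 0.0470 and 0.0392 over 7335 genes, so the numbers were not taken to pair them, although each library correlated best with its own number. With the replicate number as a block, 3798 genes were called in place of 4036, and 17 members in place of 18, Trim25 being lost (adjusted p = 0.0553). Depth limited the genes with few counts: the 95% interval of Ifi44, -0.91 to 1.01, spans the fold threshold in both directions.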

Other observations

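Families were put together by name from the set and the pathway lists with the values in view, so their counts are a description. Family genes outside the set and these lists were not counted. Of all genes tested, 13.9% fell, 13.6% rose and 2.39% fell past both thresholds. All 9 tested IRG genes, 2 of them members of the set, fell with IL-33, 3 of them past both thresholds, with a median log2 fold change of -0.55. Their summed level was 975 to 1020 CPM in control and 717 to 758 CPM with IL-33. Of 10 tested GBP genes 7 fell and 3 did not pass, with a median of -0.26, and Gbp5 differed least (-0.023, adjusted p = 0.827).

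The other families differed in direction. Of 9 tested genes of the IFI200 family, which includes cytosolic DNA sensors, 5 rose and 2 fell, with a median of 0.14. Ifi209 rose from 96.9 ± 4.83 to 130 ± 3.66 CPM (log2 fold change 0.42, SE 0.041, adjusted p = 7.4e-16). The Schlafen genes, regulators of T cell quiescence and of tRNA, had 4 of 6 lower and none higher, with a median of -0.20. The PARP genes had 4 of 5 lower and none higher, with a median of -0.19, and the IFIT genes 1 of 3 lower and none higher, with a median of -0.20. Of 12 tested TRIM genes 4 fell and 1 rose (median -0.042), and of 8 IRF genes 3 fell and 1 rose (median -0.097). Of the 7 tested OAS genes 1 fell and 1 rose, 14.3% each way, which was near the shares of all genes. Members of these families are close in sequence, and reads could have been split between them in counting.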
